A study of Homo sapiens with 12 samples.

Results

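The genes examined here encode the enzymes of cholesterol and fatty acid synthesis together with the factors that control them. They were chosen by gene symbol from a list of pathway genes, and all 38 were found among the 60612 gene rows of the count table. The list holds 7 genes of the mevalonate pathway, 11 of the route from squalene to cholesterol, 4 that control the SREBP transcription factors, 3 other SREBP targets, 5 for the liver X receptors (LXRs) and their targets, and 8 of fatty acid synthesis and desaturation.

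ZR-75-1 is an oestrogen receptor-positive human breast cancer cell line. Cells were treated by CRISPR–Cas9 with either a guide RNA without a target (sgControl) or a guide against *RB1*, the gene of the retinoblastoma protein Rb. Cells of both genotypes grew in RPMI-1640 with fetal bovine serum, itself a source of cholesterol and fatty acids, and received DMSO or 500 nM abemaciclib, which blocks CDK4/6, the kinases that inactivate Rb by phosphorylation, for 5 days. By the study's methods, edited cells had been sorted as single cells to obtain *RB1*-knockout clones, and cloning of sgControl cells is not described. RNA of 3 biological replicates was sequenced in each of 4 groups: sgControl in DMSO, sgControl in abemaciclib, *RB1* knockout in DMSO and *RB1* knockout in abemaciclib. The labels do not say how many clones stand behind a genotype, so a difference between genotypes and a difference between clones cannot be told apart.

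Cells build cholesterol from acetyl-CoA through mevalonate, isoprenoids, squalene and lanosterol. When sterols are scarce, SCAP carries the SREBP precursors from the endoplasmic reticulum to the Golgi, where they are cut into active transcription factors. INSIG proteins hold SCAP back when sterols are plentiful. SREBP-2, the product of *SREBF2*, acts chiefly on cholesterol genes and SREBP-1, the product of *SREBF1*, chiefly on fatty acid genes, while LXRs sense oxysterols and switch on sterol export and *SREBF1*. Because the method measures RNA in bulk, fewer cells with a transcript and less of it per cell cannot be told apart.

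The 12 libraries held 39907318 to 81636393 counts. *RB1* had 29 to 63 raw counts in the 6 knockout libraries and at least 2090 in every sgControl library, so no library went against its label. The 38 genes took 1.29% ± 0.09 (SD, n = 3) of all counts in sgControl cells in DMSO, 1.59% ± 0.02 after abemaciclib, 1.36% ± 0.04 in knockout cells in DMSO and 1.33% ± 0.03 after abemaciclib. The luminal markers *ESR1*, *GATA3* and *KRT8* were present, and of 9 markers of blood, stromal, endothelial and basal cells *COL1A1* was expressed while the other 8 together reached 14.5 to 19.5 normalised counts per library in sgControl cells in DMSO, 8.62 to 10.6 in abemaciclib, and 15.9 to 27.3 and 15.9 to 22.1 in knockout cells, with *CD3E* at 0 in all libraries. Among the sgControl libraries in DMSO, replicate 1 differed most from its group, with a chi-square of 50.2 and 105 per gene against replicates 2 and 3, which differed from each other by 18.1. *COL1A1* averaged 2245 ± 147 normalised counts in sgControl cells in DMSO, 2903 ± 123 in abemaciclib, and 1940.2 ± 99.4 and 2611 ± 55.5 in knockout cells, and rose with abemaciclib in sgControl (0.37 ± 0.07, adjusted p = 6.72e-08) and knockout cells (0.43 ± 0.07, adjusted p = 4.19e-09). Other quantities moved with abemaciclib in sgControl cells: *MKI67*, a proliferation marker, averaged 28035 ± 5919 normalised counts in DMSO and 369.6 ± 87.3 in abemaciclib, and mitochondrial genes took 3.49% ± 0.60 and 7.73% ± 0.70 of the counts. In knockout cells the corresponding values were 35750.1 ± 2925 and 29490.3 ± 2639 for *MKI67* and 3.98% ± 0.18 and 6.13% ± 1.09 for mitochondrial genes. Their part in the results below was not tested.

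Between genes, levels were compared as normalised counts per kilobase of exon in sgControl cells in DMSO. *SCD*, which makes the first double bond in stearate and palmitate, and *FASN*, the fatty acid synthase, stood highest at 30698 ± 1935 and 27685 ± 2554 (SD, n = 3), and their libraries overlapped. *PMVK* followed at 9137 ± 1449 and *ACLY* at 6739 ± 678. Every library of *PMVK* lay below those of *FASN* and above those of *ACLY*. Near the bottom lay *SC5D* at 89.7 ± 4.73, *LPIN1* at 16.0 ± 4.33 and the sterol exporter *ABCA1* at 3.16 ± 1.23, an order without overlap between these genes. In abemaciclib *SREBF1* moved from rank 7 to rank 3 among the 38 genes in sgControl cells, at 7775 ± 153, whereas in knockout cells it held rank 14 in DMSO and rank 10 in abemaciclib. Exon length here is that of all annotated exons of a gene joined, which can exceed the length of the transcript present. This scale also assumes reads spread along the transcript, as with the library kit in the labels. The study's general methods name a 3′ kit, with which counts would not grow with length. Without division by exon length the order turned, as *FASN* had 258048 ± 23808 normalised counts against 161012 ± 10147 for *SCD*, and *ACLY* 35097 ± 3529 against 9155 ± 1452 for *PMVK*.

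**Figure D1:**
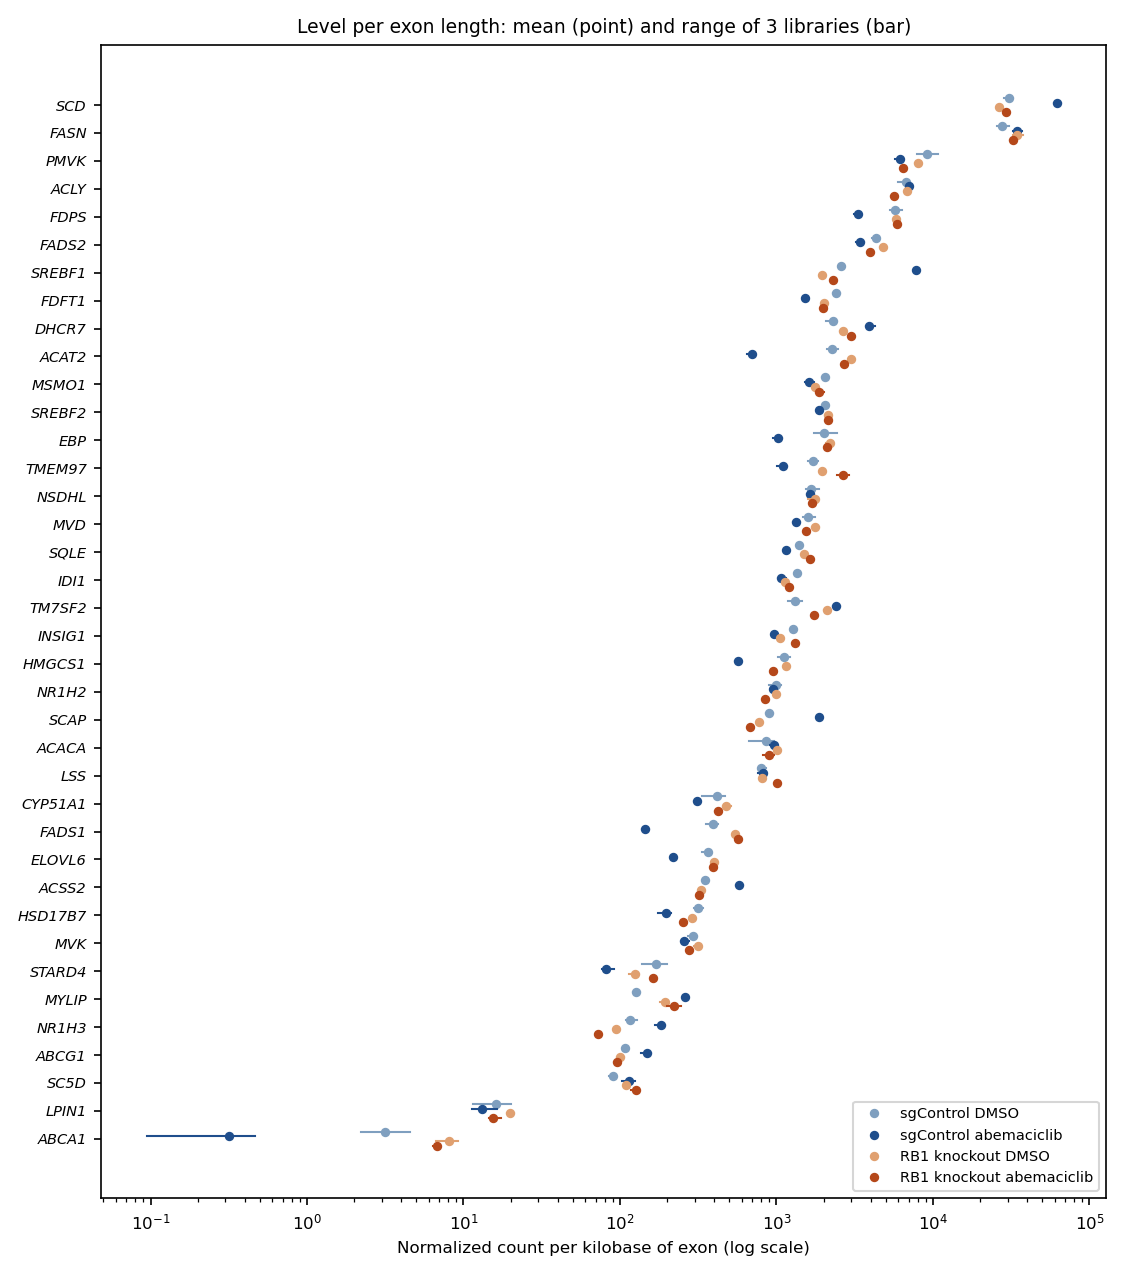
Level of each of the 38 genes in the 4 groups, as normalised counts per kilobase of exon on a log scale, with points for the mean and bars for the range of 3 libraries. *SCD* and *FASN* lead in all groups and *ABCA1* and *LPIN1* are lowest, while *SREBF1*, *SCAP*, *SCD* and *TM7SF2* in sgControl cells in abemaciclib lie to the right of the other groups and *ACAT2*, *FADS1* and *HMGCS1* to the left.

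Promoter sequence was read for the 33 of 38 genes that have an entry in the RefSeq promoter table (GRCh38.p14; 250 bases before to 50 after each start). CCAAT on either strand, the motif of the factor NF-Y that works with SREBPs at many sterol promoters, was in 24 of the 33 (72.7%), against 39.7% of the 27305 genes in the table. The GC box GGGCGG was in 32 (97.0%), against 48.3%. The sterol regulatory element TCACNCCAC was in 1, *SREBF2*, against 1.39% of all genes, and the E-box CACGTG in 5 (15.2%), against 8.77%. The E2F motifs TTTGGCGC and TTTCCCGC were in 1 gene each, *ACACA* and *MVK*, against 0.795% and 1.98% of all genes. The LXR direct repeat of 2 AGGTCA sites, 4 bases apart, was in none, against 0.0256%. The shares of all genes were taken whatever their expression, and none was taken among genes expressed like the members. Whether the CCAAT and GC box shares are particular to these genes was therefore not tested. Divided by the response to abemaciclib in sgControl cells, CCAAT was in 7 of 9 genes that rose, 13 of 18 that fell and 4 of 6 without a call. These are matches of letters in a window and no evidence of binding. Each motif was searched as a fixed string, so variants of it and sites outside the window were not counted. A missing match is therefore no evidence that a gene lacks such a site.

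Upstream sequence is shown for the transcription factor genes *SREBF1*, which rose in sgControl cells, and *SREBF2*, which holds the sterol element, and for *HMGCS1* and *INSIG1*, 2 SREBP targets that fell. Each runs 5′ to 3′ on the strand of the gene and stops where the annotated gene begins. Capitals mark TCACNCCAC, CCAAT (read here as ATTGG, its other strand) and CACGTG. The windows are chr22:41832855-41833104, plus strand, for *SREBF2*, chr7:155297628-155297775, plus strand, for *INSIG1*, chr5:43313513-43313662, minus strand, for *HMGCS1*, and chr17:17837003-17837236, minus strand, for *SREBF1*.
SREBF2: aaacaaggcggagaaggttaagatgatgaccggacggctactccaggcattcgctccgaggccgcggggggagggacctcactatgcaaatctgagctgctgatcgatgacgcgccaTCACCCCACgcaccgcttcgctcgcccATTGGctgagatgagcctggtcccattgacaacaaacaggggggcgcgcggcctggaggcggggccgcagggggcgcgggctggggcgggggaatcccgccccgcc
INSIG1: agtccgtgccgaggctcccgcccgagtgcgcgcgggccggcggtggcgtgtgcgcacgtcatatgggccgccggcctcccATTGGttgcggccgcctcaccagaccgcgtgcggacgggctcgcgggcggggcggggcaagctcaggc
HMGCS1: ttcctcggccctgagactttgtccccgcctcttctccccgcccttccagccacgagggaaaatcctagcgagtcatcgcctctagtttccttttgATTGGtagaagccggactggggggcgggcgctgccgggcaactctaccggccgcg
SREBF1: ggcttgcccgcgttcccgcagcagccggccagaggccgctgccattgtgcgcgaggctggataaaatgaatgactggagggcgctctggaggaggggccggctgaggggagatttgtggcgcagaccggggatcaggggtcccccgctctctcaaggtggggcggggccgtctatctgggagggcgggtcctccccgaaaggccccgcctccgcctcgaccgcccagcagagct
The *SREBF2* window held the sterol element 133 bases before the RefSeq start and ATTGG 106 bases before it. *INSIG1* and *HMGCS1* each held ATTGG, 170 and 155 bases before their starts, and the *SREBF1* window held none of the 3 motifs. Only 1 start of *SREBF1*, at the outer end of the gene, was in the promoter table. Sequence before any start inside the gene was not searched. The E-box of *INSIG1* and a further CCAAT of *HMGCS1* lie past the end of the stretches shown.

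The first comparison asked how these genes respond to CDK4/6 inhibition where Rb is present. In sgControl cells abemaciclib lowered the whole mevalonate list and most of the enzymes that follow, while *SREBF1*, its escort *SCAP* and the desaturase *SCD* rose. By DESeq2 at an adjusted p under 0.05, 21 of the 38 genes fell, 11 rose and 6 were not called. Of all 22723 genes tested, 49.8% were called, 25.0% as higher and 24.8% as lower. Highly expressed genes are called more often, and of the 7432 genes with a mean of at least 1000 normalised counts 73.6% were called, against 27 of the 32 members above that level (84.4%). The libraries of both groups did not overlap for 31 of the 38, against 55.8% of all genes tested. The median log2 fold change was −0.27 for the 38 genes and 0.01 for all genes. Scaling by total counts lowered the median of all genes to −0.12 and that of the 38 to −0.39, and it moved the higher share of all calls from 50.2% to 40.1%, so the changes given here are relative to a scaling under which the median gene stayed near 0.

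**Figure D2:**
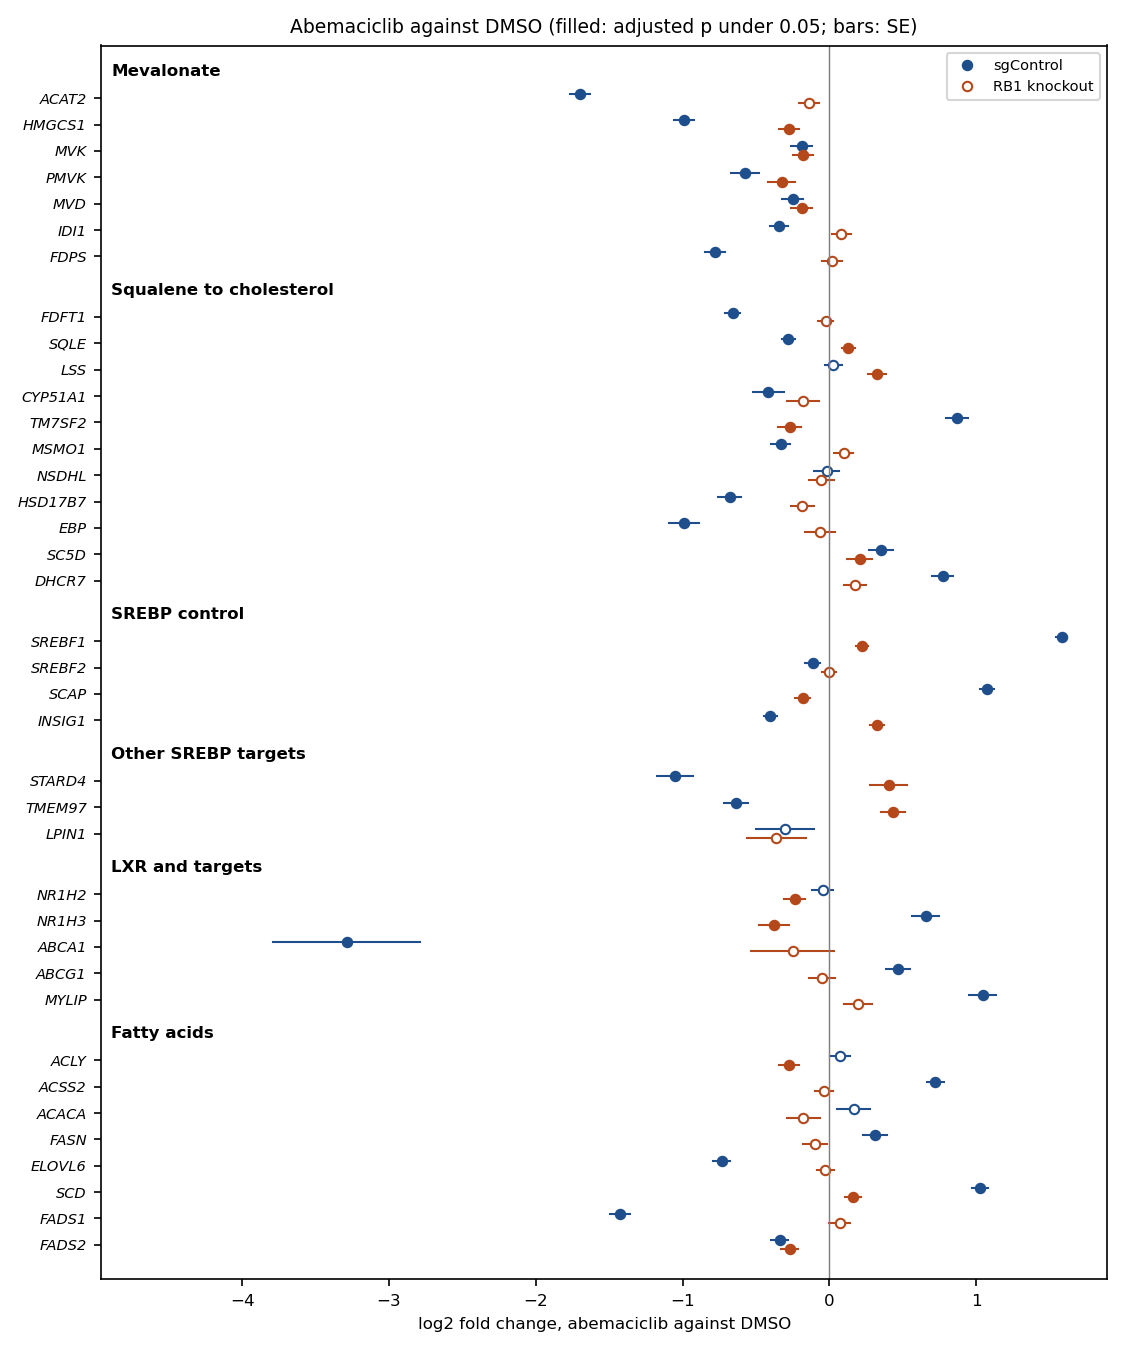
Log2 fold change of each gene in abemaciclib against DMSO, for sgControl (blue) and *RB1*-knockout cells (orange), with bars for the SE and filled points for an adjusted p under 0.05. In sgControl cells all 7 mevalonate genes lie left of 0 and *SREBF1* lies farthest right at 1.58, while knockout values stay between −0.38 and 0.43.

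All 7 mevalonate genes fell in sgControl cells, by a median of 0.57 on the log2 scale. *ACAT2*, which joins acetyl-CoA units at the start of the pathway, had 6530.2, 6001 and 5529 normalised counts in the DMSO libraries and 1928, 1715 and 1922 in the abemaciclib libraries. Every treated library lay below every control library, and the log2 fold change was −1.70 ± 0.07, adjusted p = 5.30e-130. *ACAT2* overlaps *SOD2* and *TCP1* on the opposite strand, and *TCP1*, a chaperonin gene, also fell (−0.88 ± 0.08, adjusted p = 8.77e-31). Whether reads were counted by strand is not given in the sources used here, and the part of *TCP1* reads in the *ACAT2* counts was not tested.

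*HMGCS1*, which makes HMG-CoA, had 6742, 7504 and 8085 normalised counts in DMSO and 3585, 3730.1 and 3945 in abemaciclib. The groups did not overlap (−0.99 ± 0.07, adjusted p = 4.23e-47). For *FDPS*, the farnesyl diphosphate synthase, the values were 23499.5, 20327 and 19839 in DMSO and 12700.3, 11663 and 12673 in abemaciclib, again without overlap (−0.78 ± 0.07, adjusted p = 6.70e-30). *PMVK*, phosphomevalonate kinase, fell from 10744, 8825 and 7897 to 6309.7, 5763 and 6366, with a log2 fold change of −0.57 ± 0.09, adjusted p = 2.69e-09. *IDI1*, the isopentenyl diphosphate isomerase, changed by −0.34 ± 0.06, adjusted p = 2.17e-07, *MVD*, the decarboxylase, by −0.25 ± 0.07, adjusted p = 0.00151, and *MVK*, mevalonate kinase, by −0.19 ± 0.07, adjusted p = 0.0140. The *MVK* libraries of both groups overlapped, and its call was lost without sgControl DMSO replicate 1 (adjusted p = 0.0522) or replicate 2 (0.0533), and without abemaciclib replicate 1 (0.0800) or replicate 2 (0.105).

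Of the 11 genes from squalene to cholesterol, 6 fell, 3 rose and 2 were not called. *EBP*, the sterol isomerase, had 4287, 3402 and 3059 normalised counts in DMSO and 1806, 1691 and 1914 in abemaciclib. The control libraries varied, yet all lay above the treated ones (−0.99 ± 0.10, adjusted p = 5.37e-21). *TM7SF2*, a sterol C14-reductase, went the other way, from 4956, 4369.8 and 4037 to 8709.7, 7860.4 and 7841. Its treated libraries were all above the controls (0.87 ± 0.08, adjusted p = 3.59e-29). Part of *TM7SF2* overlaps an exon of *VPS51* on the same strand, so reads of the overlap could belong to either gene.

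*HSD17B7*, a sterol ketoreductase, fell by 0.68 on the log2 scale, and *FDFT1*, squalene synthase and the first enzyme committed to sterols, fell by 0.66. Smaller decreases were seen for *CYP51A1*, lanosterol demethylase (−0.41), *MSMO1*, sterol methyl oxidase (−0.33), and *SQLE*, squalene epoxidase (−0.28). *DHCR7*, which forms cholesterol from 7-dehydrocholesterol, rose with *TM7SF2* (0.77 ± 0.07, adjusted p = 6.91e-25), as did *SC5D*, the desaturase that supplies its substrate (0.35 ± 0.08, adjusted p = 8.47e-05), although the *SC5D* call was lost with total-count scaling (adjusted p = 0.0809). *LSS*, lanosterol synthase, was not called (0.03 ± 0.06, adjusted p = 0.753), and its value was −0.11 with total-count scaling. *NSDHL*, a sterol dehydrogenase, was not called either (−0.02 ± 0.08, adjusted p = 0.889), but its value was −0.15 with an adjusted p of 0.0457 under that scaling. Taking both enzyme lists, 13 of 18 cholesterol synthesis genes fell and 3 rose.

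The genes that control SREBPs split. *SREBF1* had 21559, 21774 and 20762 normalised counts in DMSO and 65320.4, 63935 and 62809.8 in abemaciclib, a 3.00-fold rise with libraries of both groups far apart (1.58 ± 0.04, adjusted p too small to be represented). *SCAP* rose from 5949, 5533 and 5369 to 11971, 11714 and 11784. Its groups were as clearly separate (1.07 ± 0.05, adjusted p = 8.64e-101). *SREBF2* stayed close to its control level, with 16263, 17147 and 15757 in DMSO and 15623, 14891 and 14904 in abemaciclib. The treated libraries were all slightly lower (−0.11 ± 0.05, adjusted p = 0.0393), but the call did not hold with edgeR (adjusted p = 0.0543), with only the 6 samples compared (0.112), without low-count filtering (0.0558), without sgControl DMSO replicate 2 (0.209), or without abemaciclib replicate 2 (0.168) or 3 (0.150). *INSIG1*, both an SREBP target and the protein that retains SCAP, fell from 4674, 4635 and 4637 to 3515, 3439.6 and 3596, with tight replicates in both groups (−0.40 ± 0.05, adjusted p = 2.17e-17).

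Among the other SREBP targets, *STARD4*, a cytosolic sterol carrier, had 783, 955 and 1140.2 normalised counts in DMSO and 435, 437 and 518 in abemaciclib. The groups did not overlap in spite of a wide control group (−1.05 ± 0.13, adjusted p = 3.22e-16). *TMEM97*, the sigma-2 receptor, fell from 5391, 5015 and 4678 to 3398, 3348 and 2941, also without overlap (−0.64 ± 0.08, adjusted p = 3.94e-14). *LPIN1*, a phosphatidate phosphatase, was not called (−0.30 ± 0.20, adjusted p = 0.212), with values that overlapped between groups. Without sgControl DMSO replicate 1 (adjusted p = 0.0117) or abemaciclib replicate 3 (0.0401) it was called as lower, by −0.49 and −0.50.

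The LXR list held both LXR genes and 3 of their targets. *NR1H3*, the gene of LXRα, had 584, 506 and 494 normalised counts in DMSO and 874, 755 and 863 in abemaciclib. It rose without overlap between the libraries (0.66 ± 0.09, adjusted p = 7.32e-12). Its exons overlap those of *ACP2* on the opposite strand, and the part of *ACP2* reads in its counts was not tested. *NR1H2*, the gene of the widely expressed LXRβ, had 5741, 5277 and 4804 and 5389, 4945 and 4981, which overlapped, and was not called (−0.05 ± 0.07, adjusted p = 0.622), although total-count scaling made it a decrease of −0.18 with an adjusted p of 0.000131. The targets did not move together. *MYLIP*, a ubiquitin ligase that directs lipoprotein receptors to degradation, rose from 379.8, 371 and 411 to 789.9, 820.1 and 795 without overlap (1.05 ± 0.09, adjusted p = 1.64e-28), and the exporter *ABCG1* rose by 0.47 ± 0.08, adjusted p = 3.99e-08. *ABCA1*, another sterol exporter, was sparsely counted, with 25.1, 30.8 and 51.7 in DMSO and 1.08, 5.31 and 4.40 in abemaciclib. The treated libraries, with 1, 6 and 5 raw counts, were all below the controls (−3.29 ± 0.50, adjusted p = 2.43e-10), and the 95% interval of the log2 fold change was wide (−4.27 to −2.31).

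Fatty acid genes were divided, with 3 higher, 3 lower and 2 not called. *SCD* had 150146, 170241 and 162650.0 normalised counts in DMSO and 325543, 313640.0 and 343593 in abemaciclib. It rose 2.03-fold without overlap (1.02 ± 0.05, adjusted p = 4.39e-79), the largest gain in counts of any of the 38. *FADS1*, the delta-5 desaturase of polyunsaturated fatty acids, fell from 3611, 4055 and 4326 to 1559, 1417 and 1489.6, with libraries well apart (−1.43 ± 0.07, adjusted p = 4.60e-88). *FADS2*, the delta-6 desaturase next to it, had 47389, 46421 and 43019.7 and 38081, 34114 and 36062, a smaller decrease without overlap (−0.34 ± 0.06, adjusted p = 3.13e-08). The 2 genes overlap on opposite strands of chromosome 11 (chr11:61799627-61829318 and chr11:61792980-61867354, GRCh38), and *FEN1*, a replication endonuclease gene within the bounds of *FADS2* on its strand, also fell (−0.95 ± 0.07, adjusted p = 1.09e-46). The part of reads that these genes share was not tested.

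The remaining fatty acid genes included *ACSS2*, which makes acetyl-CoA from acetate and rose (0.72 ± 0.06, adjusted p = 1.01e-34), *FASN*, which rose less (0.31 ± 0.08, adjusted p = 0.000358), and *ELOVL6*, the elongase of palmitate, which fell (−0.73 ± 0.06, adjusted p = 3.59e-33). *ACLY*, which makes cytosolic acetyl-CoA from citrate, had 31032, 36877 and 37381 in DMSO and 36328, 37273 and 37027 in abemaciclib. Its libraries overlapped, and its value of 0.07 ± 0.07, adjusted p = 0.415 turned to −0.07 with total-count scaling and to −0.01 without sgControl DMSO replicate 1. *ACACA*, the acetyl-CoA carboxylase and rate-limiting enzyme of fatty acid synthesis, was not called (0.17 ± 0.11, adjusted p = 0.226), with 8694, 12300.3 and 12508 normalised counts in DMSO and 12838, 12938 and 11818 in abemaciclib. Without sgControl DMSO replicate 3 it was called as higher (0.25, adjusted p = 0.0439).

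**Figure D3:**
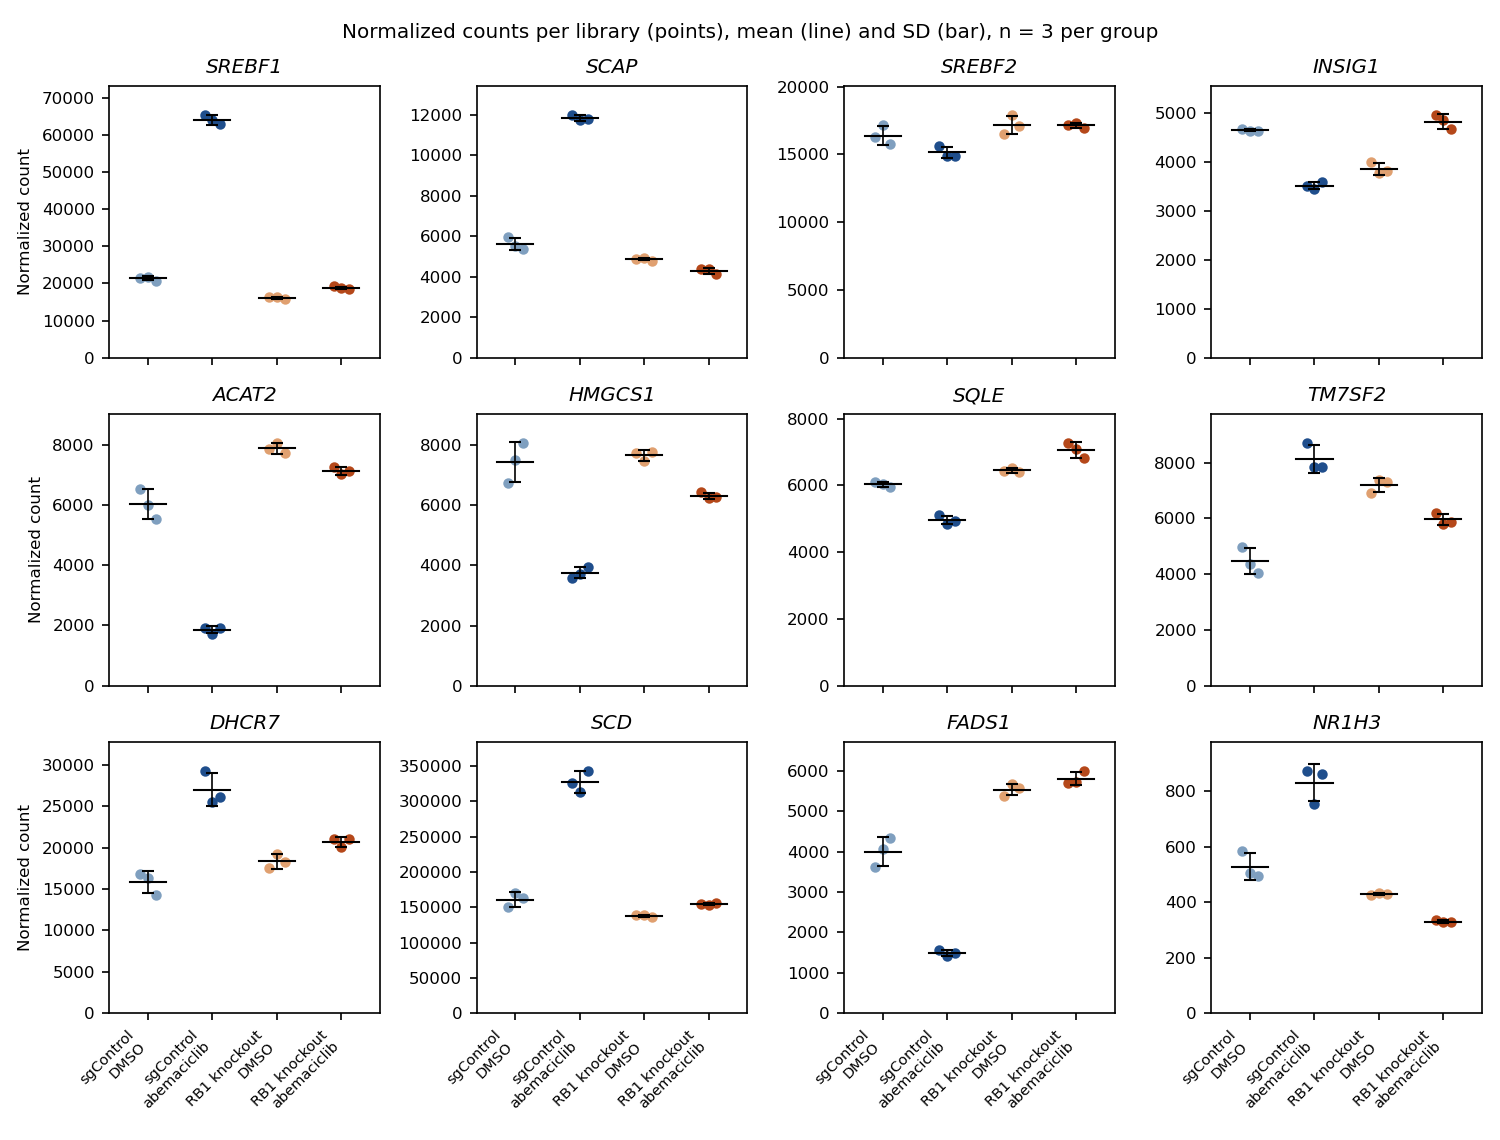
Normalised count of 12 genes in each library (points) of the 4 groups, with lines for the mean and bars for the SD of 3 libraries and each axis starting at 0. The 3 sgControl libraries in abemaciclib lie above the other 9 for *SREBF1*, *SCAP*, *TM7SF2*, *DHCR7*, *SCD* and *NR1H3*, and below them for *SREBF2*, *INSIG1*, *ACAT2*, *HMGCS1*, *SQLE* and *FADS1*.

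The second comparison asked what abemaciclib does to the same genes without Rb. In *RB1*-knockout cells the changes were small: 8 of the 38 rose, 10 fell and 20 were not called, against 30.0% of 18546 genes tested that were called, 14.9% as higher and 15.1% as lower. Of the 32 members with at least 1000 normalised counts 16 were called, against 42.8% of the 7432 such genes. The libraries of both groups did not overlap for 26 of the 38, against 49.4% of genes tested, and the median log2 fold change was −0.05 for the 38 and 0.02 for all genes. With edgeR's quasi-likelihood test 5 genes were called as higher, without *SQLE* (adjusted p = 0.0581), *SC5D* (0.0586) and *SCD* (0.108). Without knockout DMSO replicate 3 DESeq2 called 4 as higher, with *SQLE* (0.0758), *SC5D* (0.122), *SCD* (0.0672) and *STARD4* (0.0545) lost. A fit of the 6 knockout samples alone called 9 as higher and 15 as lower.

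In knockout cells 4 of the 7 mevalonate genes fell. *PMVK* had 7719, 8377 and 7982 normalised counts in DMSO and 6362, 6377 and 6482 in abemaciclib, and *HMGCS1* 7748, 7466 and 7794 and 6435, 6250.0 and 6296. The groups did not overlap for either gene, with log2 fold changes of −0.33 ± 0.09, adjusted p = 0.00271 and −0.28 ± 0.07, adjusted p = 0.000297. *MVD* and *MVK* fell by 0.19 and 0.18 on the log2 scale, but both calls were lost without knockout DMSO replicate 2 (adjusted p = 0.196 and 0.167), replicate 3 (0.0700 and 0.124) or any 1 of the abemaciclib replicates (0.0751 to 0.112 for *MVD*, 0.0651 to 0.118 for *MVK*). *ACAT2*, the gene of this list that fell most in sgControl cells, had 7843, 8063 and 7723 and 7276, 7014 and 7130.3, a difference that was not called (−0.14 ± 0.07, adjusted p = 0.102) but passed with total-count scaling (adjusted p = 0.0170) and in the fit of the 6 knockout samples (0.000930). *FDPS* had 21183, 22299.7 and 21234 and 22277, 21296 and 21891, which overlapped (0.02 ± 0.07, adjusted p = 0.896).

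Of the later sterol enzymes 3 rose and 1 fell. *LSS* had 5699.9, 5885 and 5989 normalised counts in DMSO and 7159, 7619.8 and 7198 in abemaciclib, all treated libraries being higher (0.32 ± 0.06, adjusted p = 1.27e-06). *TM7SF2* fell from 6905, 7375 and 7302 to 6203, 5807 and 5881 (−0.27 ± 0.08, adjusted p = 0.00228), opposite to its rise in sgControl cells. *SQLE* and *SC5D* rose by 0.13 and 0.21, but beside the losses above the *SQLE* call did not hold without DMSO replicate 1 (adjusted p = 0.0629) or abemaciclib replicate 1 (0.113) or 2 (0.0719), nor the *SC5D* call without DMSO replicate 1 (0.0664) or 2 (0.180) or abemaciclib replicate 2 (0.169) or 3 (0.186), or with total-count scaling (0.144). *DHCR7* was not called (0.18 ± 0.07, adjusted p = 0.0552), but it was without DMSO replicate 2 (0.0487) and with total-count scaling (0.00254). *EBP*, with 3996, 3976 and 3659 and 3743, 3659.9 and 3726, was not called (−0.06 ± 0.10, adjusted p = 0.705).

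*SREBF1* rose in knockout cells too, from 16351, 16327 and 15818 to 19191, 18756 and 18602, without overlap but by only 1.17-fold (0.22 ± 0.04, adjusted p = 1.37e-07). *SCAP* fell from 4891, 4898 and 4796 to 4361, 4387 and 4117 (−0.18 ± 0.05, adjusted p = 0.00271). *SREBF2* had 16539, 17896 and 17089 and 17143, 17312 and 16947, which overlapped (−0.00 ± 0.05, adjusted p = 0.972). *INSIG1* rose from 4004, 3766 and 3808 to 4956, 4849.7 and 4668 (0.32 ± 0.05, adjusted p = 1.64e-10), with all treated libraries above the controls. *TMEM97* rose from 5603, 5883 and 5793 to 8573, 7578 and 7171 (0.43 ± 0.08, adjusted p = 1.52e-06), and *STARD4* from 749, 716 and 647 to 949, 922 and 921 (0.40 ± 0.13, adjusted p = 0.00626). Neither gene's groups overlapped, though the *STARD4* call was lost without knockout DMSO replicate 3 (adjusted p = 0.0545).

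Both LXR genes fell in knockout cells. *NR1H3* went from 425, 432 and 431 to 335, 329 and 328, with very even replicates (−0.38 ± 0.10, adjusted p = 0.00181). *NR1H2* went from 5218, 5568 and 5203 to 4654, 4464 and 4457, also without overlap (−0.24 ± 0.07, adjusted p = 0.00394). The targets listed with them, *MYLIP*, *ABCA1* and *ABCG1*, were not called, while *SREBF1*, on which LXRs also act, rose as given above. *MYLIP* had 551, 620.3 and 612 and 679, 749.7 and 615 (0.20 ± 0.09, adjusted p = 0.104), *ABCA1* had 105, 76.0 and 92.1 and 72.5, 80.0 and 76.7 (−0.25 ± 0.28, adjusted p = 0.564), and the log2 fold change of *ABCG1* was −0.05 ± 0.09, adjusted p = 0.738. Without knockout abemaciclib replicate 3 *MYLIP* was called as higher (adjusted p = 0.0346).

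For fatty acids, *ACLY* had 35449, 35883 and 35319.5 normalised counts in knockout cells in DMSO and 27911, 30539 and 29638 in abemaciclib, and it fell without overlap (−0.28 ± 0.07, adjusted p = 0.000413). *FADS2* fell from 48393, 53136 and 49459 to 41929.6, 41549.6 and 41786 (−0.27 ± 0.06, adjusted p = 3.97e-05), with all treated libraries below the controls, while *FADS1* with 5377, 5662 and 5565 and 5708, 5712 and 6002 was not called (0.07 ± 0.07, adjusted p = 0.503). *SCD* had 138831, 139165 and 136249 and 154168, 153609 and 155668, a rise of 0.16 on the log2 scale. That call did not hold with edgeR, as given above, with total-count scaling (adjusted p = 0.0851), without knockout DMSO replicate 3 (0.0672) or without abemaciclib replicate 3 (0.0601). *FASN*, *ACACA*, *ACSS2* and *ELOVL6* were not called, with values between −0.18 and −0.03.

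Whether the response itself depended on *RB1* was tested as the interaction, the log2 response in knockout cells minus that in sgControl cells. It was called for 27 of the 38 genes, positive for 16 and negative for 11. Among 20932 genes tested 41.4% were called, 21.1% as higher and 20.3% as lower, and of the members with at least 1000 normalised counts 22 of 32 (68.8%), against 61.4% of the 7432 such genes. The median was 0.09 for the 38 and 0.03 for all genes. With total-count scaling the median of all genes rose to 0.16 and the higher share of calls went from 51.0% to 63.8%, with 20 of the 38 called as higher and 10 as lower.

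**Figure D4:**
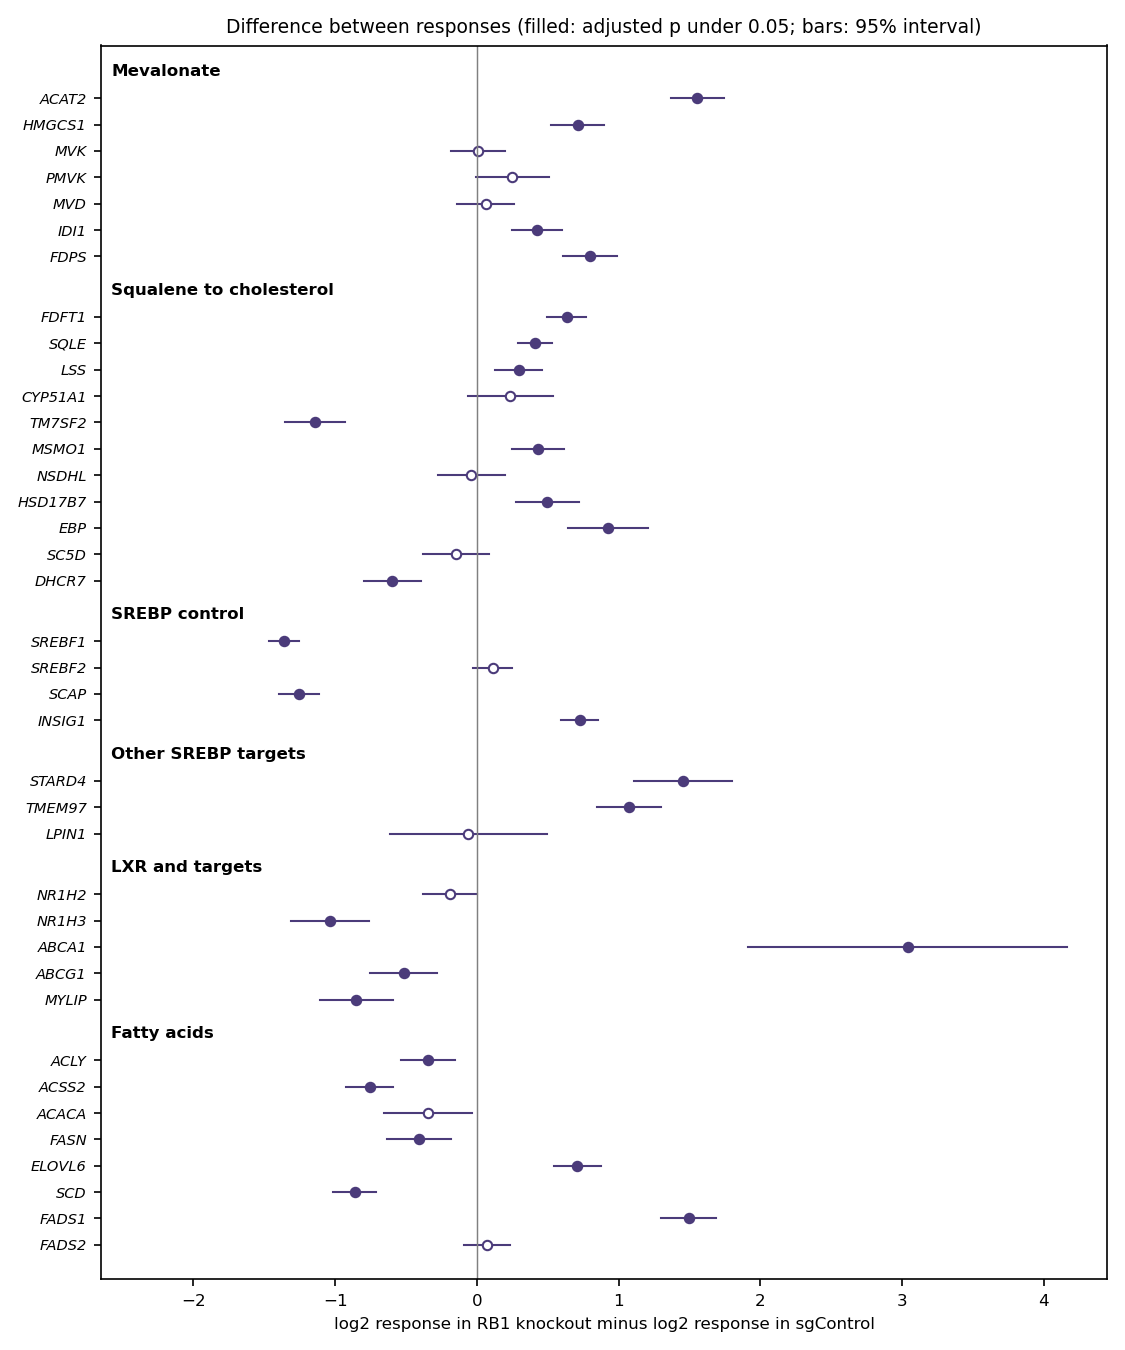
Difference between the log2 responses to abemaciclib, *RB1* knockout minus sgControl, for each gene, with bars for the 95% interval and filled points for an adjusted p under 0.05. *ACAT2*, *STARD4*, *FADS1* and *ABCA1* lie farthest to the right and *SREBF1*, *SCAP*, *TM7SF2* and *NR1H3* farthest to the left, at −1.03 or below.

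Of the 18 cholesterol synthesis genes 10 had a higher response without Rb and 2 a lower one. The interaction was 1.56 ± 0.10, adjusted p = 4.25e-56 for *ACAT2*, 0.93 ± 0.14, adjusted p = 1.29e-09 for *EBP* and 0.80 ± 0.10, adjusted p = 7.50e-16 for *FDPS*. *TM7SF2* (−1.14 ± 0.11, adjusted p = 7.31e-25) and *DHCR7* (−0.60 ± 0.10, adjusted p = 6.08e-08) were the 2 with a negative interaction. The difference was not called for 6 of these enzymes, namely *MVK* (95% interval −0.18 to 0.20), *PMVK* (−0.01 to 0.51), *MVD* (−0.14 to 0.26), *CYP51A1* (−0.07 to 0.53), *NSDHL* (−0.27 to 0.20) and *SC5D* (−0.38 to 0.09). These intervals leave room for differences of either sign. *CYP51A1* was called as higher without sgControl DMSO replicate 1 (adjusted p = 0.000473), and *PMVK* without replicate 3 (0.00367) and, like *MVD*, with total-count scaling (0.000740 and 0.0438).

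*SREBF1* (−1.36 ± 0.05, adjusted p = 1.62e-138) and *SCAP* (−1.26 ± 0.07, adjusted p = 3.17e-66) had a negative interaction. It was positive for *INSIG1* (0.72 ± 0.07, adjusted p = 6.78e-27), *STARD4* (1.45 ± 0.18, adjusted p = 2.34e-15) and *TMEM97* (1.07 ± 0.12, adjusted p = 2.74e-19). *SREBF2* was not called (0.11 ± 0.07, adjusted p = 0.203, 95% interval −0.02 to 0.25), but it was with total-count scaling (adjusted p = 0.00185). For the LXR list the interaction was negative for *NR1H3* (−1.03 ± 0.14, adjusted p = 1.19e-12), *MYLIP* (−0.85 ± 0.13, adjusted p = 8.32e-10) and *ABCG1* (−0.52 ± 0.12, adjusted p = 6.87e-05). It was 3.04 ± 0.57, adjusted p = 6.93e-07 for the sparse *ABCA1*. *NR1H2* was not called (−0.19 ± 0.10, adjusted p = 0.113) unless sgControl DMSO replicate 1 was left out (adjusted p = 0.00428).

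In the fatty acid list *FADS1* (1.50 ± 0.10, adjusted p = 6.17e-50) and *ELOVL6* (0.71 ± 0.08, adjusted p = 7.78e-16) had a positive interaction. It was negative for *SCD* (−0.86 ± 0.08, adjusted p = 2.54e-28), *ACSS2* (−0.76 ± 0.08, adjusted p = 3.18e-18), *FASN* (−0.41 ± 0.11, adjusted p = 0.00127) and *ACLY* (−0.35 ± 0.10, adjusted p = 0.00118). The *ACLY* call was lost with total-count scaling (adjusted p = 0.222). *FADS2* was not called (95% interval −0.09 to 0.23), although with total-count scaling its interaction was called as positive (adjusted p = 0.00189). *ACACA* (−0.34 ± 0.16, adjusted p = 0.0695) passed without sgControl DMSO replicate 2 (adjusted p = 0.0296) or 3 (0.00999), or without knockout abemaciclib replicate 2 (0.0476).

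The calls of both genotypes were also counted together, and each count is given with the share of the 18546 genes tested in both that had the same pair of calls. In 4 genes, *SQLE*, *INSIG1*, *STARD4* and *TMEM97*, expression fell in sgControl cells and rose in knockout cells (3.54% of all genes), and 3, *TM7SF2*, *SCAP* and *NR1H3*, did the reverse (3.28%), all 7 with a called interaction. 12 fell in sgControl cells and were not called in knockout cells (18.6%), of which 10 had a called interaction, the exceptions being *CYP51A1* and *SREBF2*. 5 rose in sgControl cells and were not called in knockout cells (18.5%), namely *DHCR7*, *ABCG1*, *MYLIP*, *ACSS2* and *FASN*, each with a called interaction. 5 fell in both genotypes (7.95%), and for 4 of them, *MVK*, *PMVK*, *MVD* and *FADS2*, the interaction was not called. *SREBF1*, *SCD* and *SC5D* rose in both (8.03%), and the interaction was called for *SREBF1* and *SCD*. Of the 6 genes not called in sgControl cells, *LSS* rose in knockout cells (3.37%), *NR1H2* and *ACLY* fell (3.87%), and *NSDHL*, *LPIN1* and *ACACA* were called in neither (32.9%). Among the 32 members with at least 1000 normalised counts, 11 fell in sgControl cells without a call in knockout cells, against 20.7% of the 7432 such genes. At that level 3 fell in sgControl and rose in knockout cells (3.53% of such genes), 2 did the reverse (6.31%), 3 rose in sgControl cells without a call in knockout cells (19.6%), 5 fell in both (14.0%) and 3 rose in both (9.38%). The other 5 members at that level were not called in sgControl cells, 1 being higher (2.68%), 2 lower (6.93%) and 2 not called (16.8%) in knockout cells.

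The last comparisons set the genotypes side by side under each treatment. They share their samples with the comparisons above and are no separate evidence for them. In DMSO 10 of the 38 genes were higher in knockout cells, 9 were lower and 19 were not called, against 37.4% of 16755 genes tested that were called, 19.2% as higher and 18.2% as lower. Above 1000 normalised counts the called share was 15 of 32 members (46.9%) and 46.0% of the 7432 genes. The libraries of both genotypes did not overlap for 24 of the 38, against 46.3% of genes tested, and the median was 0.07 for the 38 and −0.01 for all genes.

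The called differences in DMSO above 1.5-fold were those of the sparse *ABCA1* (1.31 ± 0.29, adjusted p = 4.37e-05), *TM7SF2* (0.69 ± 0.08, adjusted p = 4.44e-18) and *MYLIP* (0.62 ± 0.10, adjusted p = 1.82e-09), all higher in knockout cells. *FADS1* (0.47 ± 0.07, adjusted p = 1.86e-10), *ACAT2* (0.39 ± 0.07, adjusted p = 1.10e-07) and *FASN* (0.33 ± 0.08, adjusted p = 0.000318) were also higher. *STARD4* (−0.45 ± 0.12, adjusted p = 0.00136), *SREBF1* (−0.40 ± 0.04, adjusted p = 5.04e-24), *NR1H3* (−0.29 ± 0.10, adjusted p = 0.00981), *INSIG1* (−0.27 ± 0.05, adjusted p = 8.34e-08) and *SCAP* (−0.21 ± 0.05, adjusted p = 0.000276) were lower. The *NR1H3* call was lost without sgControl DMSO replicate 1 (adjusted p = 0.0731), the *DHCR7* call without sgControl replicate 3 (0.0868) or knockout replicate 2 (0.108), the *MSMO1* call without knockout replicate 2 (0.0692) and the *TMEM97* call without sgControl replicate 2 or 3 or any knockout replicate (0.0730 to 0.186), while *EBP* and *MVD* were called as higher without sgControl replicate 1 (0.000387 and 7.96e-05). The *FADS2* call was lost with edgeR (adjusted p = 0.0894), with only the 6 samples compared (0.148) and when replicate 2 or 3 of either group was left out (0.0780 to 0.262). Without sgControl DMSO replicate 3 *PMVK* was called as lower (0.00176) and *CYP51A1* (0.0232), *LPIN1* (0.0382) and *ACACA* (0.0110) as higher.

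**Figure D5:**
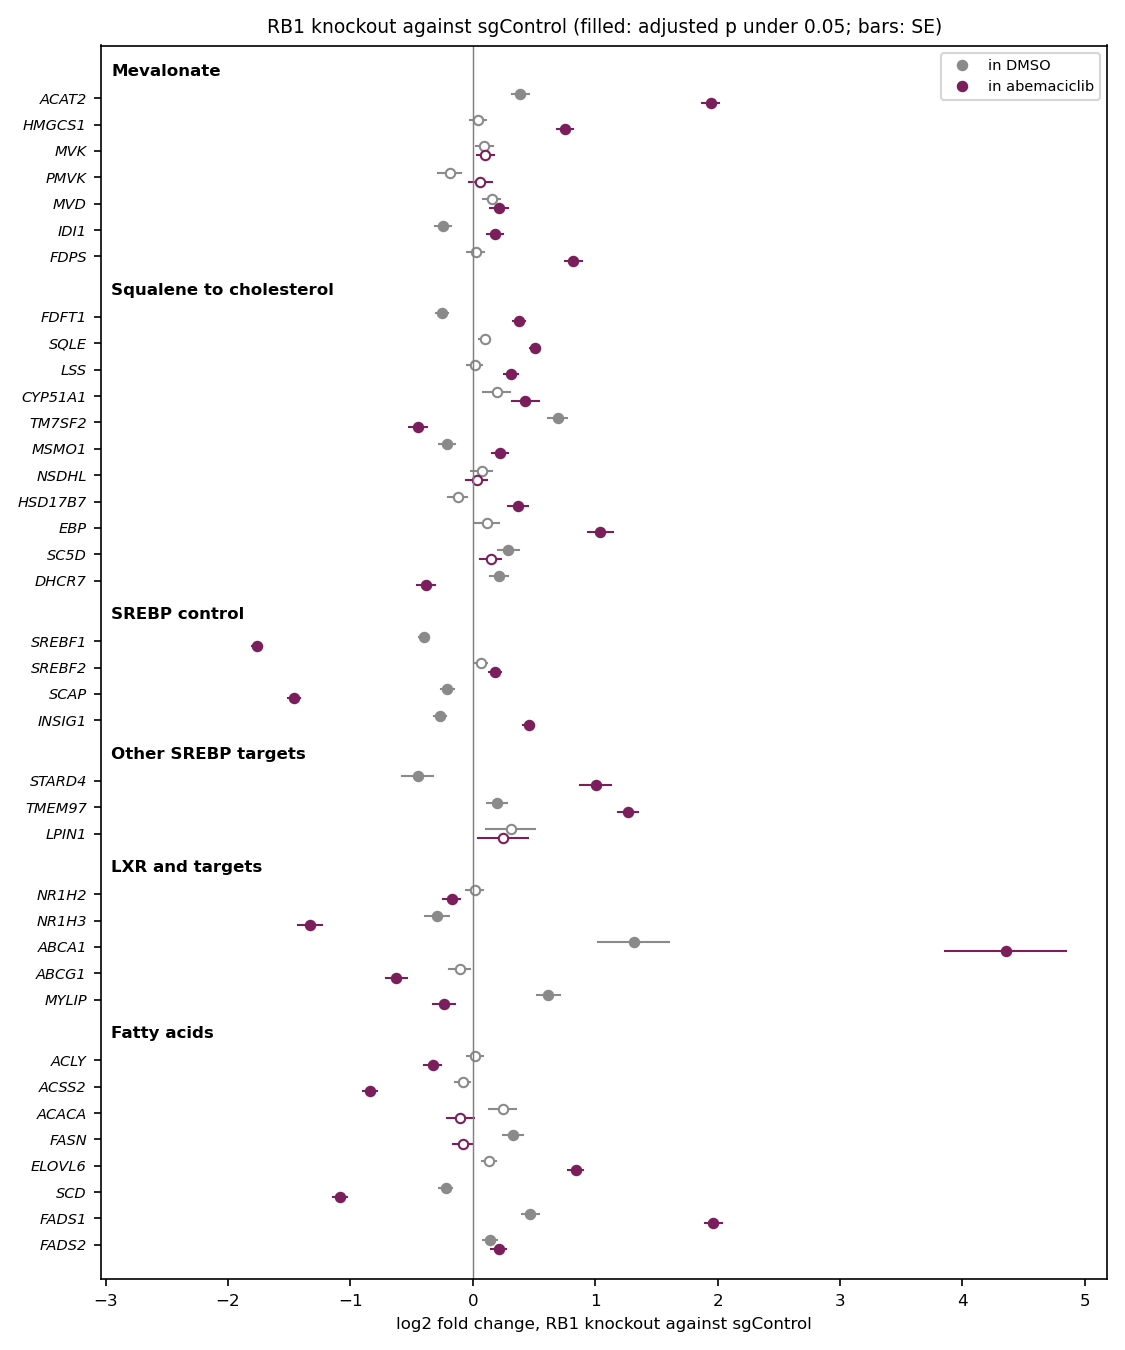
Log2 fold change of each gene in *RB1* knockout against sgControl cells, in DMSO (grey) and in abemaciclib (purple), with bars for the SE and filled points for an adjusted p under 0.05. In abemaciclib *ABCA1*, *FADS1* and *ACAT2* lie at 1.94 or above and *SREBF1*, *SCAP*, *NR1H3* and *SCD* at −1.08 or below, while in DMSO all genes but *ABCA1* lie between −0.45 and 0.69.

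In abemaciclib 20 of the 38 genes were higher in knockout cells, 11 were lower and 7 were not called, against 55.9% of 21529 genes tested, 28.5% as higher and 27.4% as lower. Among members with at least 1000 normalised counts 26 of 32 were called (81.2%), against 75.2% of the 7432 genes, and 31 of the 38 did not overlap, against 65.7% of genes tested. The median was 0.20 for the 38 and 0.02 for all genes. With total-count scaling these medians were 0.31 and 0.14, with 24 of the 38 called as higher and 9 as lower, *MYLIP* (adjusted p = 0.335) and *NR1H2* (0.262) being lost. Of the 18 cholesterol synthesis genes 12 were higher in knockout cells and 2, *TM7SF2* and *DHCR7*, were lower.

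*ACAT2* was 3.85-fold higher in knockout than in sgControl cells in abemaciclib (1.94 ± 0.07, adjusted p = 4.60e-170), *FADS1* 3.90-fold (1.96 ± 0.07, adjusted p = 7.55e-167), *TMEM97* 2.41-fold (1.27 ± 0.08, adjusted p = 6.41e-53) and *EBP* 2.06-fold (1.04 ± 0.10, adjusted p = 4.10e-23). In the other direction *SREBF1* was 3.40-fold lower (−1.76 ± 0.04, adjusted p too small to be represented), *SCAP* 2.76-fold (−1.46 ± 0.05, adjusted p = 3.13e-181), *NR1H3* 2.51-fold (−1.33 ± 0.10, adjusted p = 3.25e-40) and *SCD* 2.12-fold (−1.08 ± 0.05, adjusted p = 1.58e-88). *SREBF2*, uncalled between genotypes in DMSO (0.07 ± 0.05, adjusted p = 0.286), was higher by 0.18 ± 0.05, adjusted p = 0.000637 in abemaciclib. Some calls were lost when 1 library was left out. The *IDI1* call was lost without knockout replicate 1 (adjusted p = 0.0712) or sgControl replicate 1 or 2 (both 0.0833), and the *MVD* call without sgControl replicate 2 (0.0582). The *MYLIP* call was lost without sgControl replicate 2 or knockout replicate 1 or 3 (0.0618 to 0.157). The *NR1H2* call was lost without sgControl replicate 1 or knockout replicate 2 or 3 (0.0934 to 0.132). *SC5D* was called as higher without sgControl replicate 3 (0.0394).

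Other genes of these pathways were taken from a list of 56 in 5 groups: isoprenoid branches, SREBP processing, sterol traffic, LXR partners, and fatty acid activation and elongation. In sgControl cells abemaciclib raised 32 of them, lowered 19 and left 5 uncalled, with a median of 0.23, against 25.0% of all genes tested called as higher and 24.8% as lower. Of the 41 with at least 1000 normalised counts 37 were called (90.2%), against 73.6% of all genes at that level. With total-count scaling 20 were called as higher and 24 as lower. The largest rise was that of *THRSP*, a gene linked to lipogenesis, from 1.86, 4.41 and 3.15 normalised counts to 299, 218 and 288 (6.41 ± 0.48, adjusted p = 2.95e-40). Its control libraries had 2 to 5 raw counts, and all 6 knockout libraries had 0 to 5. The largest fall was that of *LRP8*, a lipoprotein receptor, from 1879, 2304 and 2471 to 921, 848 and 857 (−1.34 ± 0.10, adjusted p = 1.28e-41), against 2239, 2256 and 2426 and 2048, 2364 and 2213 in knockout cells in DMSO and abemaciclib. In knockout cells abemaciclib raised 9 of the 56, lowered 15 and left 32 uncalled. Of all genes tested 14.9% were called as higher and 15.1% as lower. Of the 41 with at least 1000 normalised counts 16 were called (39%), against 42.8% of all genes at that level. The interaction was called as higher for 14 and lower for 27, against 21.1% and 20.3%. Above 1000 normalised counts it was called for 33 of 41 (80.5%), against 61.4%. Against sgControl, knockout cells had 7 of the 56 higher and 19 lower in DMSO, against 19.2% and 18.2% of all genes tested. In abemaciclib 14 were higher and 33 lower, against 28.5% and 27.4%. Above 1000 normalised counts 17 of 41 were called in DMSO (41.5%), against 46.0%, and 35 in abemaciclib (85.4%), against 75.2%.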

How the data were processed

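Total RNA of 12 samples was sequenced, and the authors deposited 1 table of raw read counts per gene. Per the submitters' processing notes, reads were aligned to hg38 with STAR 2.7.5b and counted with featureCounts 2.0.1, and the study's methods add adapter trimming with BBDuk. The strand and multimapping settings are not given in the sources used here. Reads of overlapping genes or near-identical pseudogenes (*IDI1*, *FDPS*, *CYP51A1*, *HSD17B7*, *TMEM97* and *SCD* have named ones) may therefore be shared or lost. Of the 38 genes, 19 have exons that overlap a gene on the opposite strand, *SREBF1* and *NR1H3* among them. On the same strand 5 do. The table had 44 rows without a gene name, which held 0% of counts and were left out, and 60612 were used. Depth was 39907318 to 81636393 counts per library.

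From these counts DESeq2 1.42.0 (R 4.3.3) was fitted to all 12 samples with 1 coefficient per group, by the Wald test without shrinkage, and p-values were adjusted over all genes tested by the Benjamini-Hochberg method, with calls at an adjusted p under 0.05. Normalised counts are counts divided by DESeq2 size factors, log2 fold changes carry their SE and intervals are 95% Wald intervals. Alternatives were edgeR 4.0.16 (quasi-likelihood, TMM), total-count scaling, no filter and a filter of 10 counts in 3 samples, a fit of only the 6 samples compared, the replicate number as a block, and each replicate left out. Fits were tested on simulated data with a rise larger than most changes given here, so the detection of small changes was not tested. In the comparison of genotypes in abemaciclib, libraries with the same number deviated together weakly (correlations 0.15, 0.259 and 0.112). The labels state no pairing, and these values do not establish one. The block changed no call of a member there.

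Genes were named by rule: values in every library are given for *SREBF1*, *SREBF2*, *INSIG1*, *NR1H2*, *NR1H3* and, per role and comparison, the 2 members with the largest called change; other members are given by their fold change, and other pathway genes by counts and the largest change each way. The values of *ACACA*, *TCP1* and *FEN1* were added after they were seen. The background over genes with a mean of at least 1000 normalised counts was also added then. Members and lists were chosen with earlier results of these data known. Gene positions and exon lengths are from GENCODE v44 and promoter windows from RefSeq. P-values weigh a difference between groups against a spread estimated from these replicates, of which the labels say only that they are biological.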

Additional observations from a re-analysis of the deposited data

Results flagged for a closer look

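The response to abemaciclib differed between the genotypes, by the interaction in DESeq2 at an adjusted p under 0.05, for 27 of the 38 genes, against 41.4% of all genes tested. Among those with at least 1000 normalised counts it did for 22 of 32 (68.8%), against 61.4% of all genes at that level. The difference, given here as the log2 fold change in *RB1*-knockout cells minus that in sgControl cells over 3 libraries per group, was positive for 16 genes: 3.04 for *ABCA1*, 1.56 for *ACAT2*, 1.50 for *FADS1*, 1.45 for *STARD4*, 1.07 for *TMEM97*, 0.93 for *EBP*, 0.80 for *FDPS* and 0.72 for *INSIG1*, and 0.71 for *HMGCS1*, 0.71 for *ELOVL6*, 0.63 for *FDFT1*, 0.50 for *HSD17B7*, 0.43 for *MSMO1*, 0.42 for *IDI1*, 0.41 for *SQLE* and 0.30 for *LSS*. It was negative for 11 genes: −1.36 for *SREBF1*, −1.26 for *SCAP*, −1.14 for *TM7SF2*, −1.03 for *NR1H3*, −0.86 for *SCD*, −0.85 for *MYLIP*, −0.76 for *ACSS2*, −0.60 for *DHCR7*, −0.52 for *ABCG1*, −0.41 for *FASN* and −0.35 for *ACLY*. The value of *ABCA1* rests on 1 to 82 raw counts per library. That of *ACLY* was no longer called with total-count scaling. Each value compares 2 genotypes whose clones the labels do not number, so genotype and clone cannot be told apart.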

How the results depend on the processing

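Over the 38 genes and 5 comparisons, 190 values were set against each alternative but the fit of only the 6 samples compared, which gives no interaction and in which 144 values kept their direction and side of the threshold, 6 calls were added and 2 lost. With edgeR 185 kept their direction and side of the threshold and 5 calls were lost, without a filter on low counts 184 and 6, and with at least 10 counts in 3 samples all 190. With edgeR 5 genes instead of 8 were called as higher in the knockout response, and leaving out 1 library each time gave 4 to 8. Total-count scaling kept 161, added 13 calls, removed 6 and turned the sign of 10 uncalled values; it called 20 other pathway genes as higher in the sgControl response instead of 32, beside the general shift given above. The turned log2 values were −0.11 for *LSS* and −0.065 for *ACLY* in the sgControl response, 0.0012 for *SREBF2* in the knockout response, 0.094 for *NSDHL* and 0.086 for *LPIN1* in the interaction, −0.0082 for *LSS*, −0.0017 for *NR1H2* and −0.0086 for *ACLY* between genotypes in DMSO, and 0.014 for *ACACA* and 0.033 for *FASN* in abemaciclib. Leaving out 1 library at a time kept 1267 values, added 19 calls, removed 52 and turned the sign of 30, none of them called either way. Their ranges were −0.0027 to 0.075 for *LSS*, −0.075 to 0.072 for *NSDHL*, −0.11 to 0.017 for *NR1H2* and −0.011 to 0.12 for *ACLY* in the sgControl response, −0.00058 to 0.042 for *FDPS* and −0.030 to 0.028 for *SREBF2* in the knockout response, −0.13 to 0.020 for *NSDHL*, −0.034 to 0.062 for *MVK*, −0.021 to 0.11 for *MVD* and −0.26 to 0.14 for *LPIN1* in the interaction, −0.026 to 0.10 for *HMGCS1*, −0.024 to 0.10 for *FDPS*, −0.014 to 0.064 for *LSS*, −0.049 to 0.080 for *NR1H2* and −0.065 to 0.064 for *ACLY* between genotypes in DMSO, and −0.0014 to 0.069 for *NSDHL* in abemaciclib. The cause was not tested for any of these. With the replicate number as a block the 38 genes had 11 higher and 20 lower calls in the sgControl response (11 and 21 without it), 8 and 9 in the knockout response (8 and 10), 16 and 12 in the interaction (16 and 11), 10 and 9 between genotypes in DMSO and 20 and 11 in abemaciclib (both unchanged in number). The block removed the calls of *SREBF2* in the sgControl response (adjusted p = 0.0568 by DESeq2), *MVK* in the knockout response (0.0596) and *FADS2* between genotypes in DMSO (0.0646), and added *ACACA* in the interaction (0.0281) and between genotypes in DMSO (0.0395). Deviations of libraries with the same number correlated above 0.1 for all 3 numbers only between the genotypes in abemaciclib. Between sgControl cells in DMSO and in abemaciclib the correlations were 0.245, 0.223 and −0.0757, and between the genotypes in DMSO −0.25, −0.0128 and 0.0803. Between knockout cells in DMSO and in abemaciclib they were −0.0233, −0.0734 and 0.0184. Between sgControl cells in DMSO and knockout cells in abemaciclib, which were not compared, they were 0.368, 0.26 and −0.0558. A pairing was therefore not established for any comparison. Depth limits *ABCA1*, whose intervals were the widest.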
